A study of Rattus norvegicus with 8 samples.

Results

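MHC class I antigen presentation was followed through 10 genes in rat ventral prostate: the class I heavy chain gene RT1-S3, the light chain gene B2m, the peptide transporter genes Tap1 and Tap2, the loading bridge Tapbp, the immunoproteasome subunits Psmb8, Psmb9 and Psmb10, and the proteasome activator subunits Psme1 and Psme2. Every probe set annotated to exactly 1 of these 10 symbols was taken, which gave 16 of the 31042 non-control probe sets on the array; the whole table names 14217 genes. RNA came from Sprague-Dawley males of generation F3, in 4 groups of 2 arrays. These were whole ventral prostate of the vinclozolin lineage at 180 days of age, whole ventral prostate of the control lineage at 180 days, prostate epithelium of the vinclozolin lineage at 45 days, and prostate epithelium of the control lineage at 45 days. Vinclozolin is a fungicide with antiandrogenic activity. Pregnant founder females received intraperitoneal injections on days 8 to 14 of gestation, and the males studied were later descendants of them. The treatment protocol names the vehicle, DMSO, for all 8 samples, so the lineage of each sample rests on its title. An epithelium sample held RNA of 11 animals and a whole prostate sample that of several. No label states that both samples of one group were drawn from different animals, so the p-values measure the spread between these samples, which may be partly technical.

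Class I molecules show peptides from inside the cell to cytotoxic T cells and are made by nearly all nucleated cells. Proteasomes cut proteins into peptides, the Tap1/Tap2 transporter moves the peptides into the endoplasmic reticulum, and tapasin, the product of Tapbp, holds the empty heavy chain and B2m light chain beside the transporter until a peptide binds. Interferons, above all interferon gamma, raise most of these genes through sequence elements in their promoters. Under that stimulus Psmb8, Psmb9 and Psmb10 replace the constitutive catalytic subunits Psmb5, Psmb6 and Psmb7 in new proteasomes, and the Psme1/Psme2 ring caps the core.

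The promoters are shown first because the interferon-stimulated response element, or ISRE, is a known entry point for this regulation. All 10 genes matched the RefSeq promoter table (assembly GRCr8), which covers 250 bases before and 50 bases after each annotated start. The ISRE core, GAAA followed after any 2 bases by GAAA, was searched on both strands, and overlapping matches were counted. It was found in 8 of the 10 windows, against 1312 of all 33469 promoter windows (3.92%). The stretches below run 5′ to 3′ on the strand of the gene, with 20 bases on each side of the match and the match in capitals. A match that begins with TTTC lies on the opposite strand.
RT1-S3, chr20:2675396-2675445, plus strand: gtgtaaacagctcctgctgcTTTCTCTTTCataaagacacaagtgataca
B2m, chr3:129549160-129549209, plus strand: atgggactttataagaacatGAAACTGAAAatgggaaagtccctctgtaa
Tap1, chr20:4668635-4668684, minus strand: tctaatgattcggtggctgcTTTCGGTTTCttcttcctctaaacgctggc
Tap2, chr20:4652308-4652357, minus strand: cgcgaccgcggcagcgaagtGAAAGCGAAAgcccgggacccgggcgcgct
Tapbp, chr20:4967868-4967923, minus strand: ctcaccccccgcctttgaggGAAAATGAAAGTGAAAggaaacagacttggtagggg
Psmb8, chr20:4657006-4657055, minus strand: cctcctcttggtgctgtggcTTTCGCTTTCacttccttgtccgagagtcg
Psmb10, chr19:50743280-50743385, minus strand: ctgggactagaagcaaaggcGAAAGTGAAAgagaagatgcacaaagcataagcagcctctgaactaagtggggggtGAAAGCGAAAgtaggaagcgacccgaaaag
Psme2, chr15:33052775-33052824, minus strand: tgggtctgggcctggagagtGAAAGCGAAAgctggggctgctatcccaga

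Tap2, Psme2 and the second match of Psmb10 carry the same 10 letters, GAAAGCGAAA, and Psmb8 carries them on the opposite strand. Tapbp holds 2 overlapping matches and Psmb10 holds 2 separate ones. The matches of the other genes lie between 150 bases before the start (B2m) and the start itself (Psmb8). The windows of Psmb9 and Psme1 hold no ISRE core, which says only that these letters are not in those 300 bases. Psmb9 and Tap1 are neighbours read in opposite directions, with annotated starts 457 bases apart. The Tap1 match lies between these starts, at positions -345 to -336 from the Psmb9 start and so outside the Psmb9 window. The kappaB letters, GGGAC joined to TTTCC, were found in B2m and Tap1, against 37 of all windows (0.11%). The gamma-activated letters TTCNNNGAA were found in Psmb8 alone among the 10, against 8.87% of all windows. Of the 3 constitutive counterparts Psmb5, Psmb6 and Psmb7, 0 windows held an ISRE core, and of the 17 windows of the constitutive proteasome list 2 did, those of Psma4 and Psmb3. A match of letters is a description of the sequence and does not show binding.

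**Figure D1:**
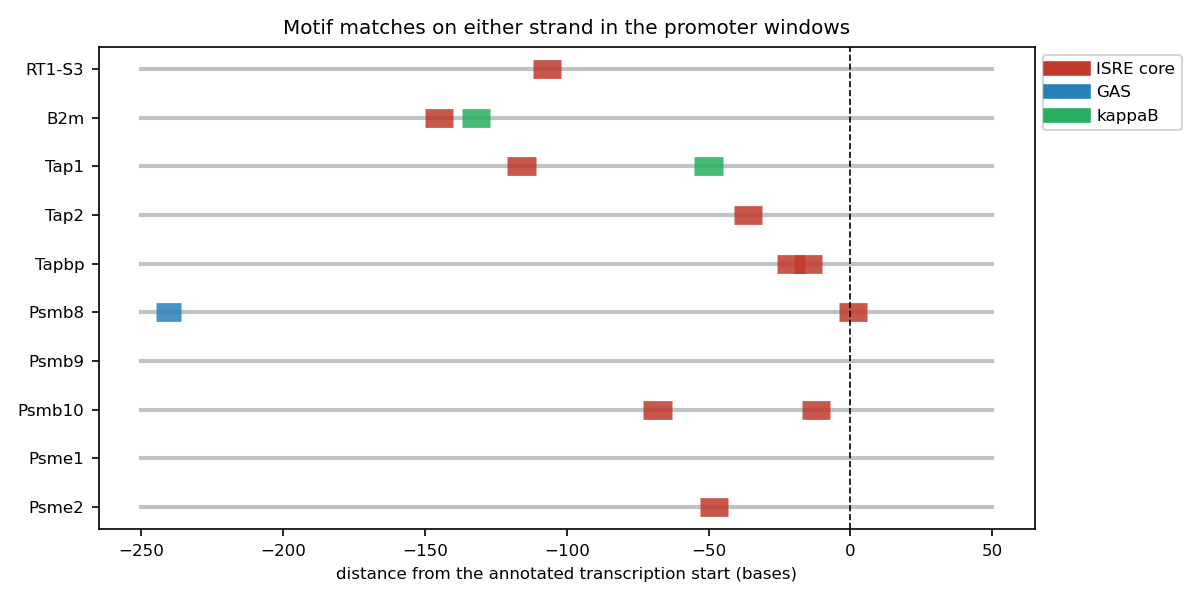
Position of each motif match in the promoter windows of the 10 genes. The horizontal axis is the distance in bases from the annotated start (dashed line), each grey bar is the 300-base window, and coloured blocks are ISRE core, gamma-activated (GAS) and kappaB matches on either strand. ISRE core matches stand in 8 of 10 windows, from 150 bases before the start in B2m to the start itself in Psmb8.

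Values are probe set intensities on the linear scale as deposited, and changes are differences of log2(intensity + 16) after quantile normalisation, vinclozolin less control, each given with the limma standard error (SE) from n = 2 arrays per group. A probe set was called at a Benjamini-Hochberg adjusted p under 0.05 over all 21729 probe sets that passed the filter on dim signals. Of the 16 member probe sets 15 passed; Tap1 probe set 1375379_at, with intensities from 2.1 to 20.2 over the 8 arrays, did not. Array medians ranged from 28.7 to 38.7. The luminal epithelial markers Krt8, Krt18, Epcam, Cdh1 and Pbsn were bright on all 8 arrays. Stromal markers did not match a pure epithelium: smooth muscle actin Acta2 read 1743.7 and 1801.5 in epithelium of the vinclozolin lineage and 2117.1 and 1788.7 in epithelium of the control lineage, but 183.1 and 172.6 in whole prostate of the vinclozolin lineage and 118.9 and 165.2 in whole prostate of the control lineage. The samples labelled epithelium are called so below, with this limit.

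In whole prostate, RT1-S3 was about 2.6 to 2.9 times higher in the vinclozolin lineage and was called on each of its 4 probe sets. Of the other 9 genes none was called, although both vinclozolin arrays lay above both control arrays for B2m, Tap1, Tapbp, Psmb8, Psmb9, Psmb10 and Psme2. Over the 15 tested probe sets, 4 were called higher and 0 lower, where 1.74% of all tested probe sets were called, 0.819% higher and 0.925% lower. An unadjusted p under 0.05 was reached by 10 of the 15, against 18.7% of all, and 13 were positive, against 48.7%. The 10 came from 7 genes, and 4 of them were probe sets of RT1-S3. Both vinclozolin arrays stood above both controls on 12 of the 15, against 26.1% of all tested probe sets, and below on 0, against 27.8%. Of these 12, 4 are probe sets of the single gene RT1-S3. With 1 probe set per gene, the brightest, 9 of the 10 genes were positive with a median of 0.37 over the 10, while the median over all 11485 named genes was -0.0010.

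RT1-S3 encodes a class Ib heavy chain, also listed as RT1-BM1 and under the mouse symbol H2-T23. Probe set 1388212_a_at read 494.3 and 446.5 in whole prostate of the vinclozolin lineage, 168.1 and 131.5 in whole prostate of the control lineage, 133.3 and 86.8 in epithelium of the vinclozolin lineage and 135.1 and 119.4 in epithelium of the control lineage. Only the 2 whole prostate vinclozolin arrays were high, and the other 6 arrays overlapped across groups. The change in whole prostate was 1.54 ± 0.22 (2.90-fold, limma adjusted p = 0.0283). On 1388213_a_at the vinclozolin arrays read 176.0 and 197.4 and the controls 61.5 and 52.8, a rise of 1.40 ± 0.13 (adjusted p = 0.0090). Probe set 1388164_at read 185.9 and 220.3 in the vinclozolin lineage and 65.0 and 61.5 in controls, a rise of 1.40 ± 0.19 (adjusted p = 0.0256). The last probe set, 1371123_x_at, read 229.4 and 253.2 against 67.0 and 79.5 in controls, a rise of 1.47 ± 0.23 (adjusted p = 0.0371). The groups did not overlap on any of the 4 probe sets. These calls were lost when any of the 4 whole prostate arrays was left out (changes from 1.27 to 1.69, adjusted p from 0.053 to 0.23 over 16 fits) or when these 4 arrays were fitted alone. By the maker's naming an x or s suffix marks probes that match more than 1 transcript, and of the 4 probe sets only 1371123_x_at carries one. RT1-S3 belongs to a family of near-identical genes, so a part of the signal on any of the 4 may come from other class I genes.

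B2m encodes the light chain of every classical class I molecule and was among the brightest genes of the array. Probe set 1367595_s_at read 4212.8 and 4238.8 in whole prostate of the vinclozolin lineage and 3343.5 and 3300.4 in that of controls. Its change was 0.26 ± 0.14, not called (95% interval -0.07 to 0.58). On 1371440_at the vinclozolin arrays read 657.9 and 679.5 and the controls 492.1 and 567.6, a change of 0.36 ± 0.12 that was not called (adjusted p = 0.18). The groups did not overlap on either probe set.

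Among the transporter and loading genes Tapbp had the largest change, and the 2 transporter genes were not shown to differ from each other. Tapbp read 256.9 and 248.3 in whole prostate of the vinclozolin lineage against 172.4 and 136.9 in controls, a change of 0.66 ± 0.14 (1.58-fold, adjusted p = 0.071, not called). Tap1, on 1388149_at, read 79.7 and 92.5 against 69.9 and 65.5 in controls, a change of 0.29 ± 0.16 that was not called. Tap2 was dim, at 15.4 and 26.4 against 14.8 and 23.4 in controls, with overlapping groups and a change of -0.00 ± 0.32 (95% interval -0.78 to 0.77). The Tap2 interval is wide enough to hold the change of every other gene described in this and the preceding paragraph. The second Tap1 probe set, 1375379_at, read 5.6 and 13.2 in the vinclozolin lineage and 5.5 and 8.8 in controls, with overlapping groups.

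All 3 immunoproteasome subunits had both vinclozolin arrays above both controls in whole prostate, and none was called. Psmb9, also known as Lmp2, read 131.6 and 153.8 in the vinclozolin lineage against 67.9 and 55.5 in controls, a change of 0.98 ± 0.20 (1.97-fold, adjusted p = 0.067). Psmb8, also known as Lmp7, read 184.4 and 156.1 against 98.2 and 81.9 in controls, a change of 0.79 ± 0.17 (1.73-fold, adjusted p = 0.082). Psmb10 read 153.8 and 103.0 against 98.0 and 85.2 in controls, a change of 0.41 ± 0.17 (adjusted p = 0.26), and its lower vinclozolin array lay only slightly above the higher control. Without vinclozolin replicate 1 the Psmb10 change was 0.18, and without replicate 2 it was 0.63. Of the constitutive counterparts, Psmb5 read 2566.0 and 2915.5 against 1818.4 and 1834.5 in controls (change 0.49 ± 0.12, not called) and Psmb7 read 2267.4 and 2139.1 against 1808.7 and 1926.6 in controls (change 0.13 ± 0.11, not called). The Psmb6 level is not given, since its probe set is annotated to more than 1 symbol.

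The activator subunits differed from each other in value. Psme2 read 881.1 and 851.3 in whole prostate of the vinclozolin lineage against 672.6 and 705.6 in controls, a change of 0.33 ± 0.12 (adjusted p = 0.23, not called). Psme1, on its bright probe set 1367663_at, read 865.1 and 926.0 against 970.3 and 802.4 in controls, with overlapping groups and a change of 0.01 ± 0.14. The 95% interval of that Psme1 change, -0.32 to 0.35, includes the Psme2 value, so the 2 genes are not shown to differ. The dim Psme1 probe set 1394006_at ran from 18.8 to 57.1 over the 8 arrays with overlapping groups.

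With a trended robust prior in place of the constant one, 9 of the 15 probe sets were called higher in whole prostate. The 5 added were B2m on 1371440_at (adjusted p = 0.0212), Tapbp (0.0035), Psmb8 (0.0118), Psmb9 (0.0041) and Psme2 (0.0364), with the same changes as above. Over all tested probe sets that prior called 1814 in place of 379.

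**Figure D2:**
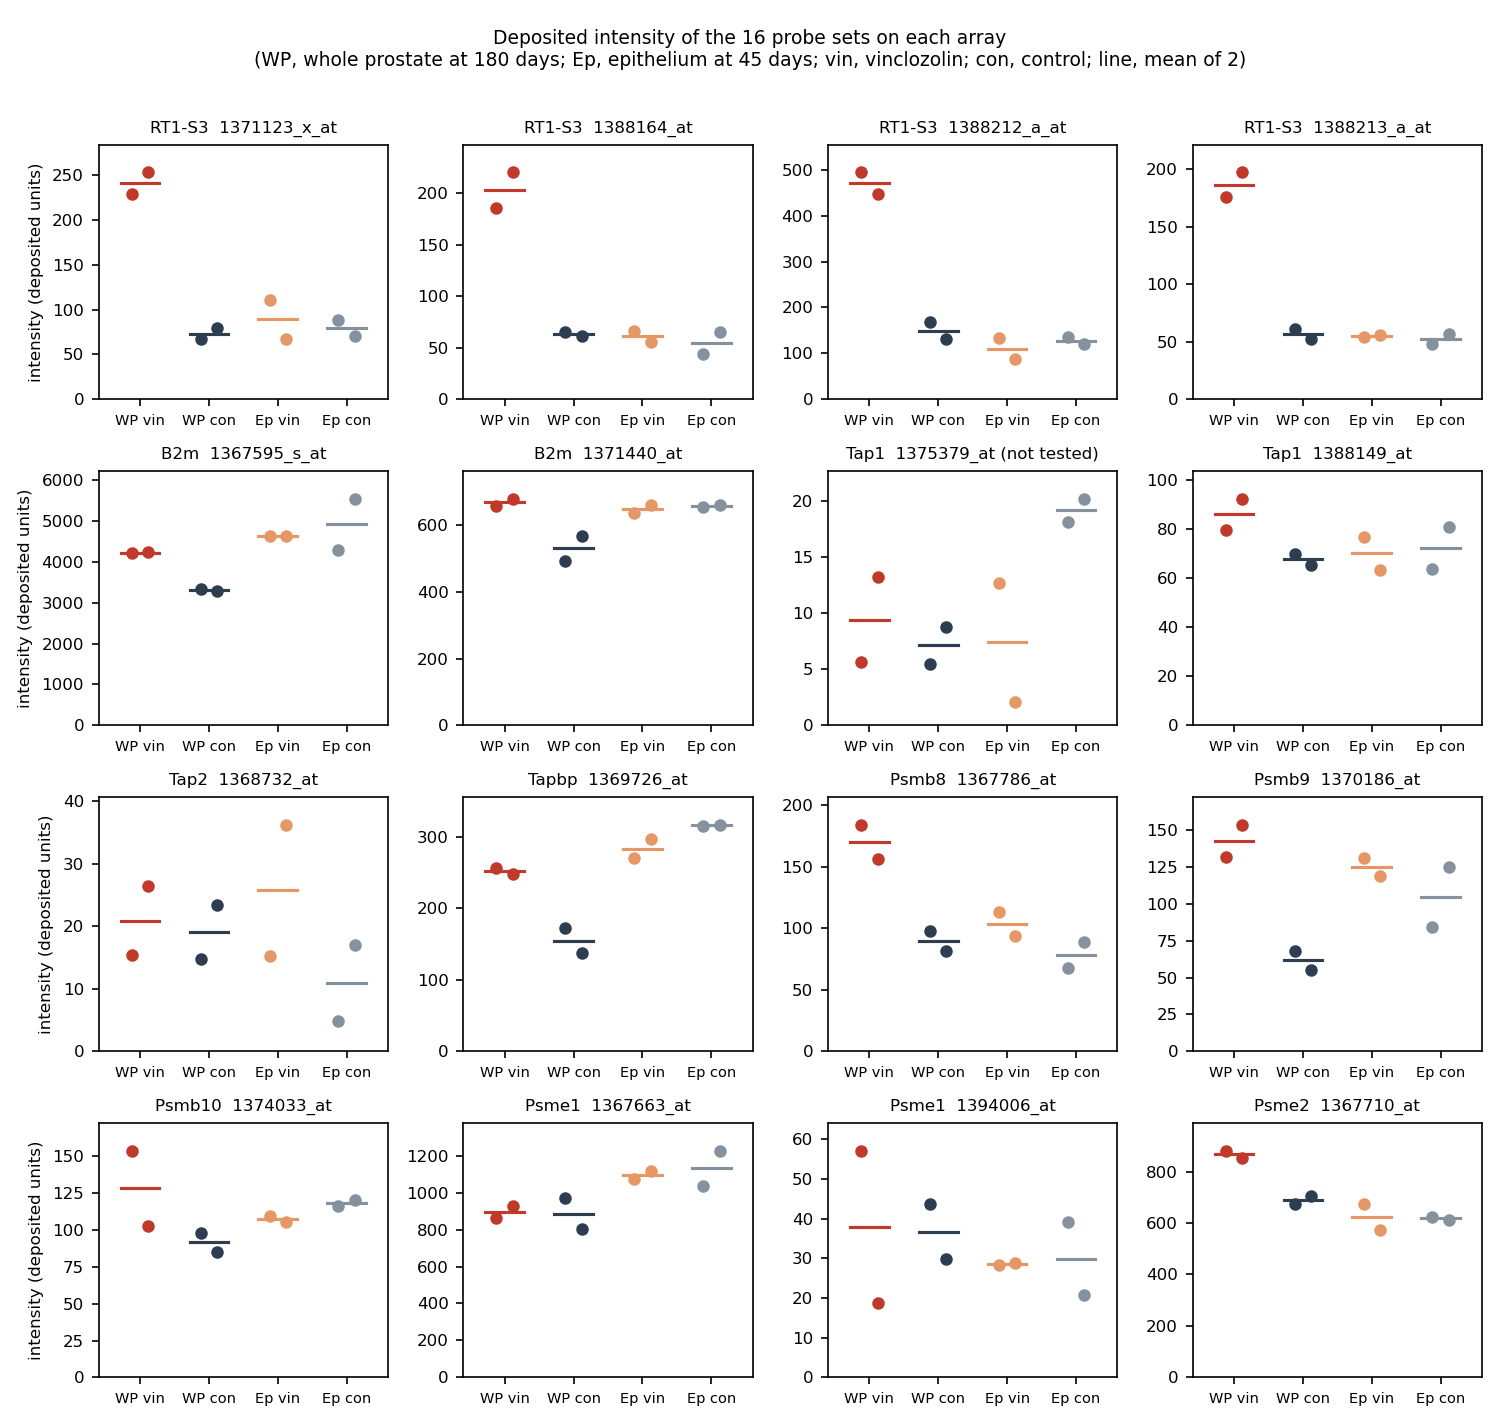
Deposited intensity of the 16 member probe sets on each of the 8 arrays, on linear axes that start at 0. Points are arrays and lines are the means of 2; vin is the vinclozolin and con the control lineage, WP is whole prostate and Ep epithelium. On the 4 RT1-S3 panels the whole prostate vinclozolin arrays stand alone, whereas for B2m and Tapbp the whole prostate control arrays are the lowest.

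In epithelium at 45 days no member was called, where 0.0092% of all tested probe sets were (0.0046% in each direction). None had an unadjusted p under 0.05, against 11.4% of all. The changes of the 15 tested probe sets lay between -0.24 and 0.55, and 7 were positive, against 49.7% of all. RT1-S3 on 1388213_a_at read 54.1 and 55.5 in the vinclozolin lineage and 48.2 and 56.9 in controls, a change of 0.03 ± 0.13 (95% interval -0.29 to 0.35). Its other 3 probe sets changed by -0.24, 0.09 and 0.13, and all 4 overlapped between the groups. Psmb8 was the member whose vinclozolin arrays both lay above the controls, at 113.5 and 94.0 against 67.4 and 89.0, with a change of 0.36 ± 0.17 (adjusted p = 0.50). Tapbp and Psmb10 had both vinclozolin arrays below both controls. Tapbp read 269.9 and 297.0 in the vinclozolin lineage against 315.5 and 317.0 in controls, a change of -0.16 ± 0.14, and Psmb10 read 109.4 and 105.3 against 116.0 and 120.4 in controls, a change of -0.15 ± 0.17. Groups did not overlap for 19.7% of all tested probe sets in the higher and 19.7% in the lower direction, so 1 and 2 of 15 are near or under the background.

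Psmb9 read 131.3 and 119.2 in epithelium of the vinclozolin lineage and 84.3 and 125.1 in that of controls, so its groups overlapped (change 0.25 ± 0.20). B2m on 1367595_s_at read 4646.3 and 4638.0 in the vinclozolin lineage and 4293.7 and 5554.0 in controls (change -0.04 ± 0.14). Tap2 had the largest positive change, 0.55 ± 0.32, from 15.3 and 36.3 in the vinclozolin lineage against 4.9 and 17.0 in controls, and its groups overlapped. The tested probe sets of Tap1, Psme1 and Psme2 also overlapped, with changes from -0.06 to 0.02. The untested Tap1 probe set 1375379_at read 12.7 and 2.1 in the vinclozolin lineage and 18.1 and 20.2 in controls, so both vinclozolin arrays lay below both controls at dim signal.

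The change in epithelium was below that in whole prostate on 13 of the 15 probe sets, where 50.9% of all tested probe sets had a positive difference. The difference was not called for any of them, against 0.29% of all, and 6 had an unadjusted p under 0.05, against 13.5% of all. These 6 came from 3 genes, Tapbp, Psmb9 and RT1-S3, and 4 of them were probe sets of RT1-S3. For RT1-S3 the difference was -1.78 ± 0.31 (adjusted p = 0.099) on 1388212_a_at and -1.37 ± 0.19 (adjusted p = 0.061) on 1388213_a_at, and on the other probe sets it was -1.38 ± 0.32 and -1.26 ± 0.27. The 95% interval on 1388212_a_at ran from -2.52 to -1.04. With the values as deposited, the difference on 1388213_a_at was called (-1.42 ± 0.18, adjusted p = 0.0455), and with a trended robust prior all 4 RT1-S3 probe sets and Tapbp were. For Tapbp the difference was -0.82 ± 0.19 (adjusted p = 0.18) and for Psmb9 -0.73 ± 0.28 (adjusted p = 0.34). Age and preparation changed together, so neither can be assigned to these differences.

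**Figure D3:**
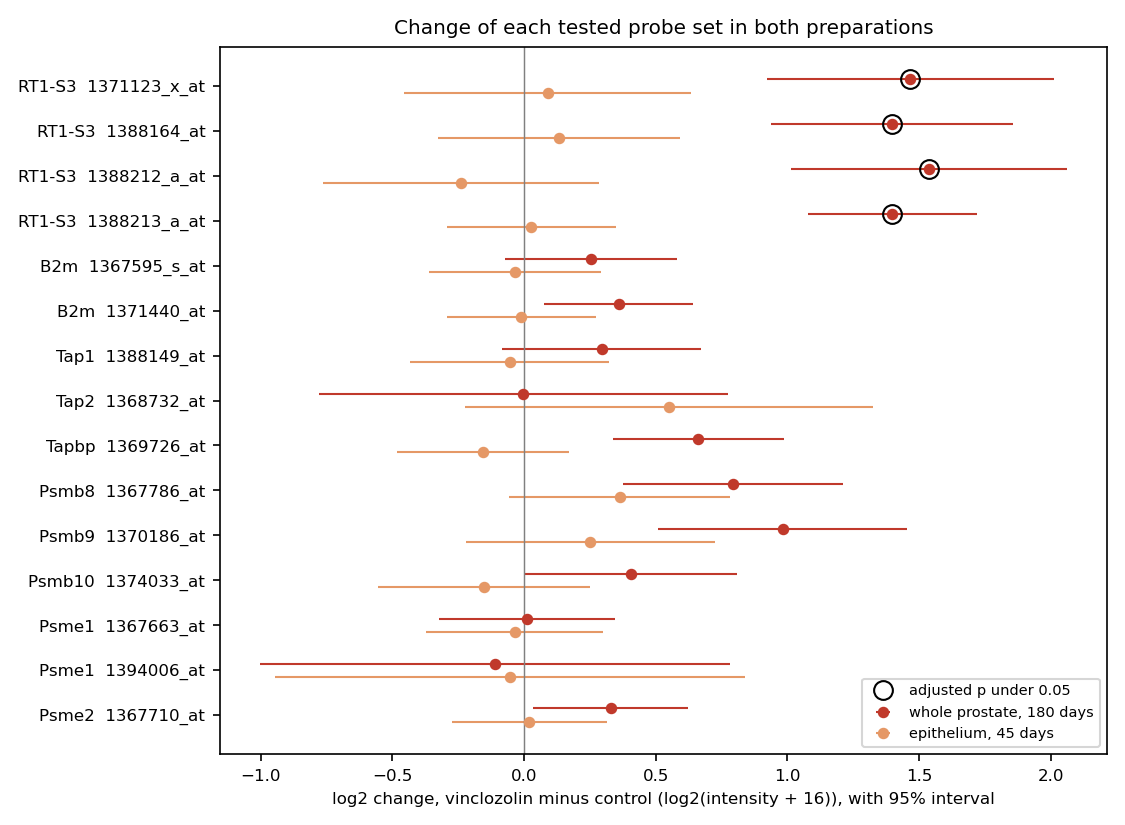
Log2 change of each tested probe set, vinclozolin minus control, in whole prostate and in epithelium, with 95% intervals of the limma fit. Circles mark an adjusted p under 0.05, which the 4 RT1-S3 probe sets reached in whole prostate. The whole prostate points of Tapbp, Psmb8 and Psmb9 lie between 0.66 and 0.98 without a circle, and the epithelium points lie between -0.24 and 0.55.

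Control epithelium at 45 days was set against control whole prostate at 180 days to give the level of these genes in each preparation. Tapbp was 2.03-fold higher in epithelium, by 1.02 ± 0.14 (adjusted p = 0.0032), and it stayed called with each of the 4 control arrays left out. B2m was higher by 0.42 ± 0.12 on 1371440_at (654.7 and 660.8 against 492.1 and 567.6, adjusted p = 0.0411) and by 0.38 ± 0.14 on 1367595_s_at, which was not called. The B2m call was lost with any of the 4 control arrays left out, where the change ran from 0.31 to 0.53. It was also lost with median centring, where the change was 0.07 ± 0.12. That scaling moved the median change of all tested probe sets to -0.20, against -0.05 with quantile normalisation, and the share of calls that were higher to 28.9%, against 46.3%. Among the 15 probe sets 2 were called higher and 0 lower, where 27.8% of all tested probe sets were called, 12.9% higher and 15.0% lower. An unadjusted p under 0.05 was reached by 5, against 40.1% of all. Both epithelium arrays lay above both whole prostate arrays on 6 of the 15, against 29.2% of all, and below on 4, against 37.4%. Psmb9 (0.52 ± 0.20) and Psme1 on 1367663_at (0.40 ± 0.14) were not called. RT1-S3 changed by -0.35 to -0.01 over its probe sets and was not called on any.

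Ordered by mean intensity, RT1-S3 on 1388212_a_at was highest in whole prostate of the vinclozolin lineage, followed by whole prostate of controls, epithelium of controls and epithelium of the vinclozolin lineage, and the last 3 overlapped. Tapbp had another order: epithelium of controls, epithelium of the vinclozolin lineage, whole prostate of the vinclozolin lineage and whole prostate of controls, with no overlap between neighbours. Psmb9 was highest in whole prostate of the vinclozolin lineage, followed by epithelium of the vinclozolin lineage, epithelium of controls and whole prostate of controls, and the arrays of the middle groups overlapped.

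Across the 8 arrays, which share 4 groups and so are no independent points, the brightest probe set of RT1-S3 followed those of Psme2 (Pearson r = 0.95), Psmb8 (0.87) and Tap1 (0.83). B2m followed Tapbp (0.86) and Psme1 (0.76). Between RT1-S3 and B2m r was -0.12, and between RT1-S3 and Psme1 it was -0.59. Over the 45 pairs of members r ranged from -0.63 to 0.95 with a median of 0.35. The 8 genes outside the lists used here that were most like the mean of the members over the 8 arrays were Oasl (r = 0.97), Ccn3, Nherf1, LOC102546992, Rbm14, Pet100, Cs and Fkbp11 (r = 0.94). Oasl, a member of the interferon-induced oligoadenylate synthetase-like family, read 73.2 and 70.6 in whole prostate of the vinclozolin lineage against 32.2 and 30.4 in controls, and 60.4 and 46.5 in epithelium of the vinclozolin lineage against 35.0 and 53.6 in controls. Of the 8 genes, Ccn3, Nherf1 and LOC102546992 were called higher in whole prostate. The members' mean was itself higher on both whole prostate vinclozolin arrays than on the controls. A rise there was therefore built into the choice of these 8 genes and adds no support.

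Other class I heavy chain genes of the RT1-A, CE, M, N and T24 series were covered by 16 further tested probe sets, of which 15 had a positive change in whole prostate. There 3 were called higher and 0 lower, with a median of 0.76. Over all tested probe sets 48.7% were positive in whole prostate and 0.819% were called higher. RT1-T24-3 read 330.0 and 362.4 in the vinclozolin lineage against 116.2 and 102.4 in controls, a rise of 1.49 ± 0.15 (adjusted p = 0.0094). RT1-A, a classical heavy chain gene, rose by 0.87 ± 0.13 (adjusted p = 0.0294), and RT1-CE12 measured 0.97 ± 0.19 and was not called. The third called probe set, 1370428_x_at, is annotated to more than 1 class I symbol. In whole prostate it read 898.0 and 930.3 in the vinclozolin lineage against 203.0 and 238.4 in controls. Its epithelium arrays read 561.6 and 485.0 in the vinclozolin lineage against 402.8 and 389.9 in controls (0.40 ± 0.13, not called). The difference of its changes, -1.57 ± 0.18 (limma adjusted p = 0.036), was the only called difference among the 16. In epithelium 7 of the 16 had a positive change, 0 were called and the median was -0.04. These probe sets may share transcripts with each other and with those of RT1-S3, and several are of the single gene RT1-CE5, so they are no independent count. The heavy chain list with 1 probe set per gene also holds Cd1d1. In whole prostate 9 of its 11 tested genes were positive and 2 were called higher, with a median of 0.44. The same counts over all 11485 named genes were 5721 and 114. Cd1d1 was lower, by -0.36 ± 0.14, and was not called.

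The rest of the presentation machinery was read from lists with 1 probe set per gene, its brightest. Over all 11485 genes read this way in whole prostate, 5721 were positive, 114 called higher and 104 lower. The constitutive proteasome core had 0 of 17 genes called in whole prostate and a median change of 0.08, and the proteasome caps other than Psme1 and Psme2 had 0 of 22 and 0.02. Peptide loading and trimming genes had 0 of 15 called and a median of -0.01, with Calr, the chaperone calreticulin, at 0.35 ± 0.11 and Ganab, a trimming glucosidase, at 0.52 ± 0.13. In the list of interferon signalling and class I regulators 2 of 17 genes were called higher and 0 lower. Of the 17 changes 11 were positive, and the median was 0.19. The lowest change was that of Ifngr1, at -0.37 ± 0.13 (not called). Irf8, a transcription factor of myeloid cells, rose by 1.47 ± 0.11, and Stat2, which carries the type I interferon signal, rose by 0.96 ± 0.10. Irf9, the partner of Stat2 at the ISRE, measured 1.02 ± 0.19 on its brighter probe set (adjusted p = 0.059), while its other probe set, 1374627_at, was called higher (1.35 ± 0.15, adjusted p = 0.0135). Irf1 measured 0.77 ± 0.28 and was not called. Nlrc5, the class I transactivator, was dim at 27.4 and 68.4 against 15.2 and 24.9 in controls and was not called (0.71 ± 0.32).

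In epithelium of the vinclozolin lineage the same lists had 0 genes called by limma; 2 of all 21729 probe sets were called and 2471 had an unadjusted p under 0.05. Medians there were 0.06 for the constitutive core, 0.02 for the caps, 0.11 for loading and trimming and -0.08 for interferon signalling. Stat2 read 242.8 and 238.2 in the vinclozolin lineage against 153.9 and 162.9 in controls, a change of 0.58 ± 0.10 that was not called (adjusted p = 0.21). Irf1, which binds ISRE-like elements, read 202.4 and 300.0 against 451.2 and 406.9 in controls (-0.78 ± 0.28, not called). In the controls Irf1 was higher by 2.80 ± 0.28 in epithelium than in whole prostate (adjusted p = 0.0012).

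Class II genes share the presentation task but serve professional antigen-presenting cells. All 9 had a positive change in whole prostate, 3 were called higher, and their median was 0.77, against 0.37 for the 10 class I genes. Of all 11485 named genes, 5721 were positive there and 114 were called higher. In epithelium 2 of the 9 were positive, with 0 called and a median of -0.24.

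**Figure D4:**
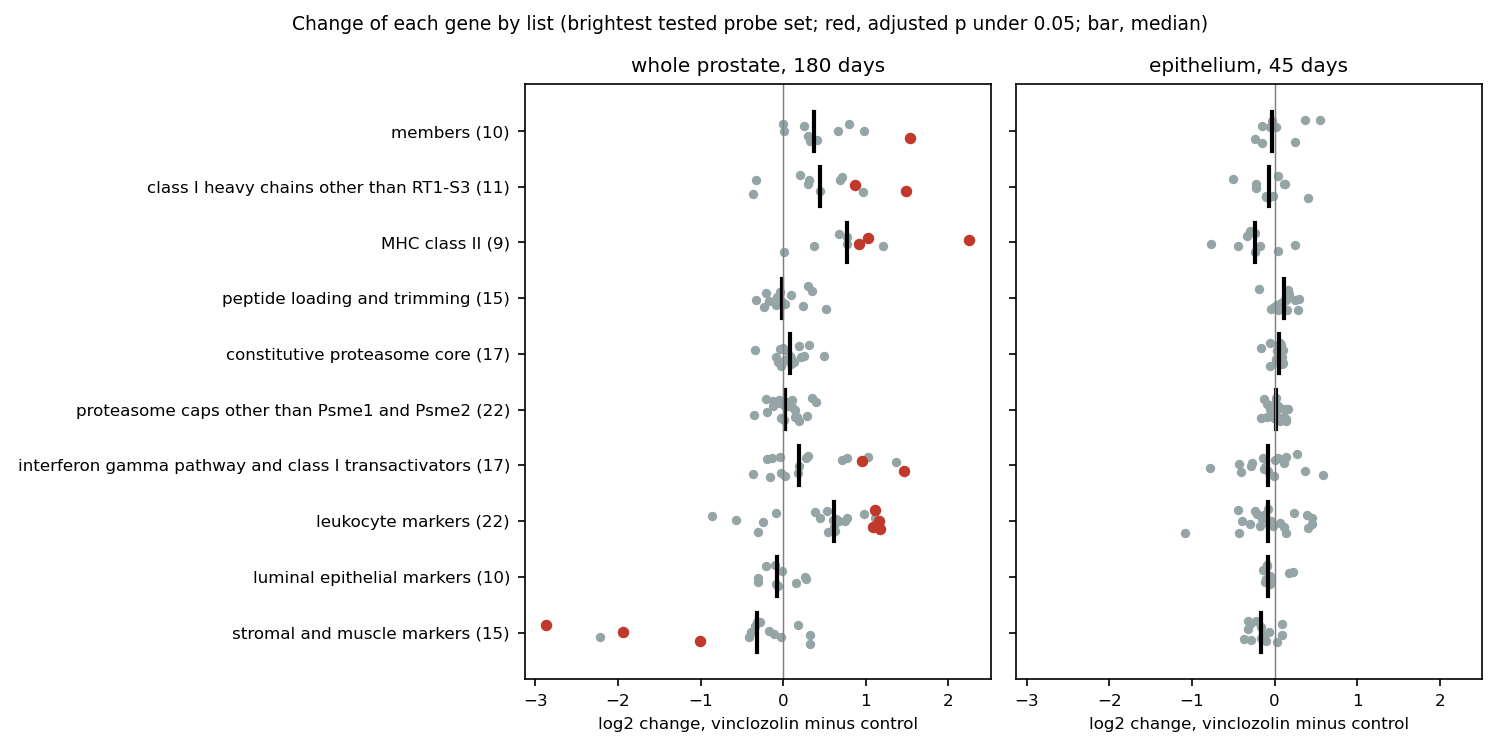
Log2 change, vinclozolin minus control, of each tested gene by list (its brightest probe set), in whole prostate and in epithelium. Red points have an adjusted p under 0.05, black bars are medians, and numbers in brackets count genes. The 10 members, the class I heavy chains and the class II genes have medians of 0.37, 0.44 and 0.77 in whole prostate and of -0.04, -0.07 and -0.24 in epithelium.

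Most leukocyte markers had a positive change in whole prostate, but the brightest did not. Of 22 tested markers 17 were positive and 4 were called higher (Fcer1g, Csf1r, Coro1a and Fcgr3a), with a median of 0.62. The 5 negative ones were Lyz2, Cd14, Adgre1, Cd163 and Cd4, and 0 were called lower. Among all 11485 named genes 5721 were positive in whole prostate, 114 called higher and 104 lower. Lyz2, a lysozyme gene and the brightest of the list, read 3440.5 and 4169.4 in the vinclozolin lineage against 6134.1 and 5666.5 in controls, a change of -0.86 ± 0.16 (adjusted p = 0.057). Cd14, a monocyte receptor and the next brightest, read 892.1 and 940.5 against 1379.4 and 1251.3 in controls, a change of -0.58 ± 0.11 (adjusted p = 0.064). Both vinclozolin arrays lay below both controls for these genes, opposite to RT1-S3. Csf1r, a macrophage receptor, read 149.5 and 123.8 in the vinclozolin lineage against 59.8 and 43.6 in controls. The summed intensity of all 30 markers on the array ran from 6256.5 to 7119.5 in the vinclozolin lineage and from 7932.5 to 8475.2 in controls, so it was lower in the vinclozolin lineage. The order turned without Lyz2, a choice made after seeing its values: the sum of the other 29 ran from 2816.0 to 2950.1 in the vinclozolin lineage and from 2266.0 to 2341.1 in controls. No marker was at 0; 3 were under 16 on both vinclozolin arrays and 8 on both control arrays. In epithelium the sum of all 30 ran from 7566.5 to 7737.9 in the vinclozolin lineage and from 9093.1 to 10506.5 in controls, with 11 under 16 in each group, and B cell marker Cd79b was under 16 on all 8 arrays. Between the controls, 10 of the 22 tested markers were called lower in epithelium than in whole prostate and 1 higher, against 15.0% and 12.9% of all probe sets. Lyz2 (0.03 ± 0.16) and Cd14 (0.14 ± 0.11) were not called there. Whether Lyz2, Cd14 or the sums stand for leukocytes in this tissue was not tested. In whole tissue, more cells of a type and more RNA per cell cannot be told apart.

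Some RNA quality measures and muscle markers also moved with the lineage in whole prostate. The 5S ribosomal RNA control probe set read 189.2 and 184.0 in the vinclozolin lineage against 462.9 and 478.6 in controls, and the 3' to 5' ratio of beta-actin was 3.37 and 3.14 against 3.74 and 3.98 in controls. The same ratio of GAPDH overlapped between the groups, at 1.3963 and 1.354 in the vinclozolin lineage against 1.4716 and 1.3944 in controls. Stromal and muscle markers summed to 4905.3 and 4996.0 in the vinclozolin lineage against 6624.5 and 6639.3 in controls, with Myl1, Tnnc2 and Acta1, genes of skeletal muscle fibres, called lower. Luminal markers summed to between 20761.0 and 21149.4 in the vinclozolin lineage and between 20453.8 and 20639.7 in controls, with 0 of 10 called. The part of leukocyte content, muscle content or RNA quality in the class I values was not tested.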

How the data were processed

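RNA of 8 pooled samples was measured on Affymetrix arrays, biotin-labelled by the maker's standard procedure per the labels' protocols. The authors deposited linear intensity values of 31099 probe sets, made with software not given in the sources used here. All 8 arrays shared a 2% trimmed mean of about 125.05, which points to scaling to a common mean. The 57 control probe sets were left out, log2(intensity + 16) was quantile normalised, and those whose mean lay below the 30th percentile were removed, leaving 21729. The added 16 understates changes of dim probe sets, and between 28.3% and 36.7% of probe sets per array were under 16. The small number of arrays limits the precision, and the table holds no detection calls.

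Genes were named from GEO's platform annotation, from probe sets with 1 symbol (20826), and 436 had several. Group means of all 8 arrays were fitted with limma 3.58.1 in R 4.3.3 (4 residual and 2.62 prior degrees of freedom), with Benjamini-Hochberg adjustment over all probe sets tested. The 4 comparisons were vinclozolin against control in each preparation, the difference of these changes, and control epithelium against control whole prostate. Alternatives were other scalings, a pseudocount of 1, no filter, a trended robust prior, the compared arrays alone, the replicate number as a block, and each array left out.

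Named genes were all members, up to 4 genes of lowest p per list, Psmb5 and Psmb7, and the 8 genes most like the members' mean. Irf1, Nlrc5, Csf1r, Lyz2, Cd14, Adgre1, Cd163, Cd4, Acta2, Cd79b and the second Irf9 probe set were named besides, after their values were seen. So were Ifngr1 and Cd1d1. Members, lists and motifs were chosen with earlier results of these data known. Promoters are from RefSeq (GRCr8). Python 3.11.15 and matplotlib 3.10.9 were used for tables and plots.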

Additional observations from a re-analysis of the deposited data

How the results depend on the processing

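No member value that was called in either setting changed its sign under any alternative, and of 705 member values under alternatives 35 that were not called did, 37 lost a call and 19 gained one. In whole prostate the 4 member calls became 1 with a pseudocount of 1, 2 without the filter, 9 with a trended robust prior and 0 with the 4 arrays alone, and 0 with any array left out; the 379 calls over all probe sets became 235 with a pseudocount of 1, 200 without the filter, 1814 with the trended prior, 65 with the 4 arrays alone and 24 to 57 with an array left out. In epithelium 0 members were called under every alternative run, and the 2 calls over all probe sets became 1 with median centring, 205 with the trended prior, and 0 with a pseudocount of 1, without the filter, with the 4 arrays alone or with any array left out. For the difference of changes the 0 member calls became 1 with the values as deposited and 5 with the trended prior, and stayed 0 with any array left out; the 63 calls over all probe sets became 40, 32 and 540 with a pseudocount of 1, no filter and the trended prior, and 5 to 19 with an array left out. Between the controls the 2 member calls became 1 with a pseudocount of 1, without the filter and with the 4 arrays alone, 5 with the trended prior, and 1 to 3 with an array left out, while the 6051 calls over all probe sets ranged from 2648 to 4218 with an array left out. With median centring, 36.1% of the whole prostate calls were higher, against 47.0%. The cause of these shifts was not tested, beyond fewer arrays or more probe sets entering the fit.

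With the replicate number as a block, calls over all probe sets were 177 in whole prostate, 0 in epithelium and 26 for the difference, and 2 members were called in whole prostate. The titles give the groups the same numbers without saying what they share, and the deviations of same-numbered arrays correlated between -0.02 and 0.03, so the numbers were not taken as pairs. Signals near or under an intensity of 16, as for Tap2 and 1 probe set each of Tap1 and Psme1, limit what can be said of these genes.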

Other observations

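The ISRE core of the class I promoters was also read against the changes of all genes, as a description with no test. In whole prostate the 305 tested genes with a match in their promoter window had a median change of 0.06, with 14 called higher in the vinclozolin lineage and 3 lower. The 9231 tested genes without a match had a median of -0.0014, with 70 called higher and 80 lower. With the members left out, 297 genes with a match had a median of 0.04, with 13 called higher and 3 lower. Among those 13, named after their values were seen, were Ifi27, Ifitm2, Irf7, Oas1a, Rsad2, Irgm2 and Dtx3l, which are known interferon-induced genes. The others were Lgals3bp, Wdr25, C2cd4b, LOC100910973, Cyss and Fcgr3a, the last of which is also in the leukocyte list. These others were not sorted by their response to interferon, so the 13 give no count of interferon-induced genes. In epithelium the 305 genes had a median of 0.01 with 0 called in either direction, as had the 9231 without a match (0 called, median -0.0043).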
